A study of Mus musculus with 24 samples.

Results

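The genes described here encode subunits of the mitochondrial respiratory chain and of ATP synthase. They were chosen by symbol from the probe-to-gene table of the array, as the genes named Ndufa, Ndufb, Ndufc, Ndufs or Ndufv with a number, Sdha to Sdhd, Uqcr, Cyc1, Cox4 to Cox8 and Atp5. The rule found 69 of the 8251 genes on the array. It used symbols only, but it was chosen with earlier results of these data known. Complex I held 28 of them, complex II 4, complex III 8, complex IV 14 and complex V 14. Cox7a2l, a factor that joins complexes into larger assemblies, was counted apart. For the 19 genes with several probe sets, the one of highest mean signal was used. The filter on low values was passed by 62 genes. The other 7, Ndufa12, Ndufc2, Ndufs4, Cox5a, Cox7a1, Cox8a and Atp5j2, lay below it.

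RNA came from primary mouse embryonic fibroblasts at passage 3, hybridised to 24 oligonucleotide arrays. CHOP-/- and wild type fibroblasts were each untreated or given tunicamycin (2 µg/ml) for 4 h or 8 h, which made 6 groups, and every group had 4 arrays lettered A to D. Tunicamycin blocks the first step of N-linked glycosylation and so causes endoplasmic reticulum (ER) stress, and CHOP, the product of Ddit3, is one of the transcription factors induced by that stress. The comparisons asked how respiratory chain transcripts stood after tunicamycin and whether this depended on CHOP. The labels name no solvent control and give no time for the untreated cells, so a change after tunicamycin cannot be told apart from a change with time or handling. They also do not state whether the arrays within a group are separate cultures, how many embryos were used or which strain they had. The p-values therefore reflect only the spread between these samples, which may be technical.

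Complexes I and II feed electrons from NADH and from succinate to ubiquinone, complex III passes them on to cytochrome c, and complex IV hands them to oxygen. Complexes I, III and IV pump protons out of the matrix, and complex V, the ATP synthase, uses the returning protons to make ATP. All genes of the list lie in the nucleus, and their products join subunits encoded by mitochondrial DNA, which the symbol rule does not cover. The 69 genes were spread over 19 chromosomes, with at most 8 on any one.

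Facts of the whole data set were as follows. Ddit3 gave a signal (array units) of 14.7 ± 12, 31.6 ± 11 and 20.5 ± 14.4 in CHOP-/- cells untreated, at 4 h and at 8 h, against 299.6 ± 97.4, 3652 ± 722 and 4383 ± 524 in wild type cells (SD, n = 4 each), and the genotypes did not overlap at any time. Of 11 fibroblast markers, all on the array, 10 passed the filter, and their summed signal lay between 19052 and 31457 on every array. Of 14 leukocyte markers 13 were on the array and 9 passed. Their summed signal lay between 556 and 1905 on all CHOP-/- arrays and on wild type arrays C and D, while it was 3089, 2851 and 2663 on wild type arrays A and 5385, 5022 and 4412 on wild type arrays B (untreated, 4 h and 8 h). In wild type cells it differed most between letters and was lower at 8 h than untreated for each letter, including C (794, 761 and 654) and D (1130, 888 and 720), and in CHOP-/- cells it was lower at 8 h than untreated for 3 of 4 letters. Its part in any result was not tested. Array medians lay between 48.4 and 73, the lowest on wild type 4 h C and the highest on wild type 4 h A.

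A small set of the subunit genes fell after 8 h of tunicamycin, 4 of them in both genotypes. They were Uqcrh of complex III, Cox7a2 and Cox6b2 of complex IV and Sdhd of complex II. In wild type cells Cox7b of complex IV and Ndufb3 of complex I fell as well. The 4 were 6.45% of the 62 genes tested, where 3.62% of all genes were called lower in both genotypes. Counted in 1 genotype, the shares called lower were near those of all genes, at 6.45% against 6.59% in CHOP-/- cells and 9.68% against 6.99% in wild type cells. No subunit gene rose, and no fitted change reached 2-fold in either direction in any of the 9 comparisons. A gene was called when the p of limma, adjusted over all 5662 genes tested by the Benjamini-Hochberg method, was under 0.05. Since RNA was taken from whole cultures, fewer cells of a type and less RNA per cell cannot be told apart.

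The stretches directly upstream of the start of the 4 genes that fell in both genotypes are shown first, to set the sequences beside their common direction. Each is the 100 bases before the annotated start, 5′ to 3′ on the gene's strand, from RefSeq (GRCm38.p6), and capitals mark a match to the ETS core CCGGAAG on either strand, the core letters bound by GABPA, a known activator of respiratory chain genes.
Uqcrh, chr4:116075071-116075170, minus strand: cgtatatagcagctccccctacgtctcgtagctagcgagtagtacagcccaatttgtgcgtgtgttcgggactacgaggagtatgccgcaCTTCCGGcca
Sdhd, chr9:50603850-50603949, minus strand: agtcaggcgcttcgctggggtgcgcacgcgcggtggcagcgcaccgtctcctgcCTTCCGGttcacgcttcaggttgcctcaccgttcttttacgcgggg
Cox7a2, chr9:79759854-79759953, minus strand: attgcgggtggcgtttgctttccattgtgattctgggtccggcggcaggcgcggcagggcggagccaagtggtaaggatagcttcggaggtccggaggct
Cox6b2, chr7:4753095-4753194, minus strand: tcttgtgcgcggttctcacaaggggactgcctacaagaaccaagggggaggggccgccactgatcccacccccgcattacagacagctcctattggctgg
The core began 10 bases before the start of Uqcrh and 46 before that of Sdhd, on the strand opposite to the gene in both. The windows of Cox7a2 and Cox6b2 held neither this core nor the second one searched.

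The second core was CGCATGCG, the palindrome bound by NRF1, the other factor best known for respiratory chain promoters. RefSeq's promoter table (250 bases before to 50 after the start) had an entry for 55 of the 69 genes. The NRF1 core was found, on either strand, in 8 of them (14.5%), against 236 of 6518 other genes of the array (3.62%) and 559 of all 27025 genes in the table (2.07%). The ETS core was found in 15 (27.3%), against 1107 of the other genes of the array (17.0%) and 2683 of all genes (9.93%). Median GC content was 59.0% in the 55 promoters, 61% in the others of the array and 53.3% in all. By complex, the NRF1 core was in 4 of 12 promoters of complex V, 2 of 4 of complex III, 1 of 10 of complex IV, 1 of 25 of complex I and 0 of 3 of complex II. Examples whose printed stretch holds the core, in capitals, are from complex V and complex I.
Atp5g2, chr15:102671048-102671147, minus strand: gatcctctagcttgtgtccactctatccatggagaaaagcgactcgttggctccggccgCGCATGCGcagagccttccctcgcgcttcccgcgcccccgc
Atp5k, chr5:108434400-108434499, minus strand: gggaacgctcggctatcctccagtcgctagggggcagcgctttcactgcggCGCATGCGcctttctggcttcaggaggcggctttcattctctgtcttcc
Ndufa8, chr2:36049339-36049438, minus strand: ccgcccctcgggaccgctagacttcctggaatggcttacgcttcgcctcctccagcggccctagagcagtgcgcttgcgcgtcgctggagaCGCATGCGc
The core began 41, 49 and 9 bases before the start of Atp5g2, Atp5k and Ndufa8. A match of letters is a description and not a bound site.

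Uqcrh encodes the hinge protein of complex III, which helps cytochrome c1 meet cytochrome c. On CHOP-/- arrays A to D its signal was 1344, 1596, 1208 and 1891 untreated, 1213, 1320, 1632 and 1359 at 4 h, and 864, 767, 857 and 997 at 8 h. For wild type cells it was 1691, 2164, 2052 and 2276 untreated, 915, 1761, 1805 and 1617 at 4 h, and 1148, 959, 1241 and 1285 at 8 h. In each genotype all 8 h arrays lay below all untreated arrays, while the 4 h arrays overlapped the untreated ones. The change at 8 h was −0.80 (SE 0.168) in CHOP-/- cells (limma, adjusted p = 0.00187) and −0.78 (SE 0.168) in wild type cells (adjusted p = 0.00188), on the scale of log2(signal + pseudocount). The difference between these responses was −0.02 (95% interval −0.51 to 0.47). Wild type 4 h array A, at 915, lay below every wild type 8 h array.

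Between the genotypes Uqcrh was −0.39 in untreated CHOP-/- cells relative to untreated wild type cells (limma, adjusted p = 0.454) and −0.41 at 8 h (SE 0.168, adjusted p = 0.191), with 1 wild type array, B, inside the CHOP-/- range at 8 h. Arrays of the same letter deviated together in the 8 h groups of the genotypes. In a fit of only these arrays with the letter as a replicate block the 8 h difference was called (−0.41, SE 0.082, limma, adjusted p = 0.0152). Uqcrh was the only one of the 62 genes lower in CHOP-/- cells in that paired fit (1.61%), and 0 were higher, where 5.32% of all genes were lower and 6.25% higher. The paired fit was chosen after seeing the data. With the letter as a block over all 24 arrays the difference was not called. Cyc1, cytochrome c1 and so the partner of Uqcrh, had a log2 difference from untreated cells of 0.00 in CHOP-/- cells at 8 h and of 0.03 in wild type cells, with no call.

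Cox7a2 is the widely used form of subunit VIIa of complex IV. On arrays A to D it gave 1531, 1892, 1482 and 1754 in untreated CHOP-/- cells, 1451, 1386, 1725 and 1545 at 4 h, and 1217, 1116, 1201 and 1282 at 8 h. Wild type cells gave 1871, 2173, 2014 and 1600 untreated, 1354, 1856, 1647 and 1505 at 4 h, and 1426, 1279, 1211 and 1444 at 8 h. The 8 h arrays of each genotype lay below all its untreated arrays, and the 4 h arrays overlapped the untreated ones. The change at 8 h was −0.47 (SE 0.102) in CHOP-/- cells (limma, adjusted p = 0.00237) and −0.48 (SE 0.102) in wild type cells (adjusted p = 0.00174), and the responses differed by 0.01 (95% interval −0.29 to 0.30). Both calls were lost with arrays centred on their medians (limma, adjusted p = 0.194 in CHOP-/- cells and 0.0844 in wild type cells).

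Sdhd is a membrane anchor of succinate dehydrogenase (complex II) at the site where ubiquinone is reduced. Its signal was 1148, 1279, 1016 and 1163 in untreated CHOP-/- cells, 913, 1096, 1092 and 742 at 4 h, and 863, 899, 846 and 820 at 8 h (arrays A to D). Wild type cells gave 1227, 1252, 1187 and 1341 untreated, 1018, 1135, 1193 and 1190 at 4 h, and 964, 912, 984 and 1119 at 8 h. The 8 h and untreated arrays did not overlap in either genotype. Sdhd fell by 0.43 on the log2 scale (SE 0.110) in CHOP-/- cells (limma, adjusted p = 0.0103) and by 0.33 (SE 0.110) in wild type cells (adjusted p = 0.0396). The wild type call was lost in 9 of 23 alternatives, among them 6 of the 8 that left out 1 untreated or 8 h wild type array. The CHOP-/- call was lost with arrays centred on their medians (limma, adjusted p = 0.231). It was also lost in a fit of only the compared arrays blocked by letter (0.0564).

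The other subunits of complex II were not called at 8 h. Sdha, the flavoprotein that oxidises succinate, had a difference of −0.35 in CHOP-/- cells (adjusted p = 0.125) and −0.21 in wild type cells (adjusted p = 0.381). Sdhb, the iron-sulphur subunit, had −0.05 in CHOP-/- cells and −0.12 in wild type cells, and Sdhc, the second anchor, −0.19 in CHOP-/- cells and −0.11 in wild type cells.

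Cox6b2 is a form of subunit VIb of complex IV known from testis. Its signal was 155, 165, 140 and 180 in untreated CHOP-/- cells, 125, 151, 162 and 139 at 4 h, and 117, 93.7, 94.1 and 102 at 8 h (arrays A to D). Wild type cells gave 113, 103, 111 and 144 untreated, 98.9, 82.7, 107 and 127 at 4 h, and 68.8, 52.5, 87.4 and 74.5 at 8 h. All 8 h arrays lay below all untreated arrays of their genotype, and at 8 h all CHOP-/- arrays lay above all wild type arrays. The change at 8 h was −0.59 (SE 0.178) in CHOP-/- cells (limma, adjusted p = 0.0275) and −0.69 (SE 0.178) in wild type cells (adjusted p = 0.00857).

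Cox6b2 was higher on average in CHOP-/- cells at all times, by 0.39 untreated (adjusted p = 0.519), 0.51 at 4 h (adjusted p = 0.143) and 0.49 at 8 h (adjusted p = 0.137), and none of these differences was called. Its probe set is of a type that can also bind related sequences, and its CHOP-/- call at 8 h was lost in 7 of 21 alternatives, 5 of them with 1 array left out. The wild type call at 8 h was lost with the mean of all probe sets (limma, adjusted p = 0.0538). The other probe sets of Cox6b2 disagreed. In a fit over every probe set the second had a difference of −0.96 in CHOP-/- cells (SE 0.422, adjusted p = 0.212) and −1.21 in wild type cells (SE 0.422, adjusted p = 0.0833). The last had −0.38 in CHOP-/- cells (SE 0.281, adjusted p = 0.544) and 0.20 in wild type cells (SE 0.281, adjusted p = 0.796).

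Cox7b, a small subunit of complex IV, gave 984, 1076, 875 and 1337 in untreated CHOP-/- cells, 1132, 888, 693 and 864 at 4 h, and 736, 769, 923 and 757 at 8 h. Wild type arrays gave 1317, 1334, 1699 and 1144 untreated, 915, 1255, 1165 and 800 at 4 h, and 926, 876, 1065 and 774 at 8 h. The wild type 8 h and untreated arrays did not overlap, whereas CHOP-/- array C at 8 h lay above CHOP-/- array C untreated. The change at 8 h was −0.42 (SE 0.161) in CHOP-/- cells (limma, adjusted p = 0.0861) and −0.58 (SE 0.161) in wild type cells (adjusted p = 0.0153). The wild type call was lost without untreated array C (adjusted p = 0.0636), without 8 h array D (0.0591) and with arrays centred on their medians (0.106). The difference between the responses was 0.15 (95% interval −0.32 to 0.63), so the call in one genotype and not in the other does not show that they differ.

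Ndufb3 is an accessory subunit in the membrane arm of complex I. It gave 545, 599, 338 and 670 in untreated CHOP-/- cells, 578, 280, 277 and 345 at 4 h, and 360, 297, 249.9 and 331 at 8 h. Wild type arrays gave 532, 868, 1059 and 610 untreated, 348, 340, 611 and 458 at 4 h, and 407, 266, 497 and 404 at 8 h. Its spread was wide, with wild type untreated arrays B and C high and CHOP-/- untreated array C low. The change at 8 h was −0.75 (SE 0.26) in CHOP-/- cells (limma, adjusted p = 0.058) and −0.95 (SE 0.26) in wild type cells (adjusted p = 0.0132). The response difference was 0.21 (95% interval −0.55 to 0.97). Without untreated array C or without 8 h array B the wild type value was not called (limma, adjusted p = 0.0549 and 0.0554). The same held with arrays centred on their medians (adjusted p = 0.0603).

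**Figure D1:**
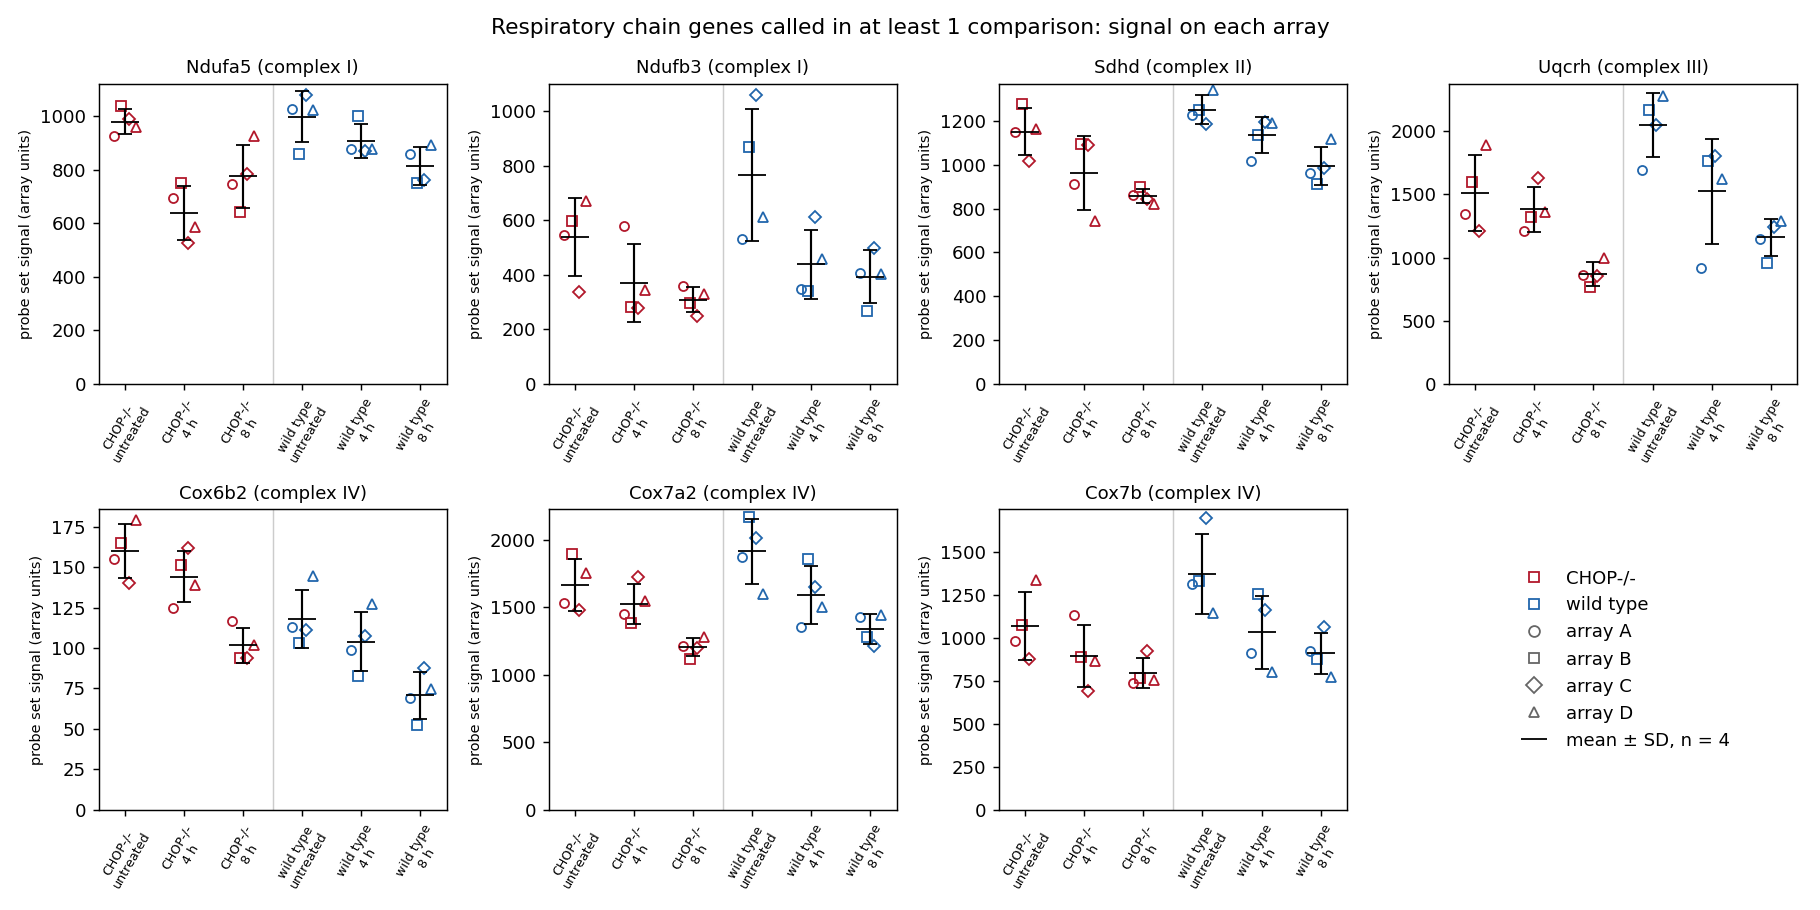
Signal (array units, linear, from 0) of the 7 subunit genes called in at least 1 comparison, on each of the 24 arrays, with CHOP-/- groups in red left of wild type groups in blue; point shapes give the array letter and bars the mean ± SD of 4 arrays. In Uqcrh, Cox7a2, Sdhd and Cox6b2 the 8 h arrays of each genotype sit below all untreated arrays of the same genotype, and in Ndufa5 the 4 CHOP-/- arrays at 4 h, 525 to 750, sit below all wild type arrays at that time.

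Read against all genes, the counts at 8 h were near the background. Called lower in CHOP-/- cells were 4 of 62 subunit genes (6.45%), where 6.59% of all genes tested were called lower and 7.35% higher. Called lower in wild type cells were 6 of 62 (9.68%), where 6.99% of all genes were called lower and 9.63% higher. With each array centred on its median the counts were 0 in CHOP-/- cells and 2 in wild type cells. No count over all genes under that centring is set beside them. At an unadjusted p under 0.05 the shares were 25.8% of subunit genes and 26.9% of all genes in CHOP-/- cells, and 22.6% and 27.9% in wild type cells. The directions were less even than among all genes. For CHOP-/- cells 46 of 62 changes (74.2%) were below 0, with a median of −0.10, against 51.4% and −0.01 over all genes. Centring each array on its median in place of quantile normalization brought the subunit genes to 33 of 62 and a median of −0.01. The median over all genes under that centring was 0.07, above that of the subunit genes. For wild type cells 49 of 62 (79%) were below 0, with a median of −0.19, against 52% and −0.02 over all genes, and the median lay between −0.20 and −0.14 under all alternatives run.

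Groups that did not overlap at all were counted on the normalized values. Among CHOP-/- arrays 9 of 62 subunit genes (14.5%) had every 8 h array below every untreated array, where 8.64% of all genes did, and 0 had the opposite order (10% of all genes). Among wild type arrays these counts were 13 of 62 (21%; 9.03% of all genes) and 1 of 62, Cox6a2 (11.7% of all genes). Wild type arrays of the same letter deviated together. A fit of only the compared arrays with the letter as a replicate block was chosen after seeing the data. In this paired fit 15 of 62 subunit genes (24.2%) were called lower at 8 h and 0 higher. Of all genes 13.8% were lower and 14.9% higher. A block over all 24 arrays called fewer subunit genes, as given in the last section. Besides the 6 above, the genes called in the paired fit were Ndufa5, Ndufa9, Ndufa13, Ndufv3, Uqcrb, Atp5a1, Atp5c1, Atp5j and Atp5mpl. Several of these were named only after their values were seen.

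For most subunit genes the data also bound the change. The 95% interval lay within 2-fold in both directions for 58 of 62 (93.5%) in CHOP-/- cells at 8 h and for 56 of 62 (90.3%) in wild type cells, where it did so for 80.5% and 80.3% of all genes. The median SE of a log2 change was 0.189. With 4 arrays in a group the precision is limited.

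By complex, the medians at 8 h in CHOP-/- cells were −0.15 for complex I (25 genes tested), −0.27 for complex II (4), −0.03 for complex III (8), 0.04 for complex IV (11) and −0.12 for complex V (13). The wild type medians were −0.21 for complex I, −0.17 for complex II, −0.10 for complex III, −0.06 for complex IV and −0.19 for complex V. Complexes III and IV held 3 of the 4 genes that fell in both genotypes, but their medians were the closest to 0. In complex IV the changes ran between −0.59 and 0.50 in CHOP-/- cells and between −0.69 and 0.55 in wild type cells. Differences between complexes were not tested.

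Complex I is the entry point of NADH electrons. Of its 25 genes tested, 0 were called in CHOP-/- cells at 8 h by limma, with 7 at an unadjusted p under 0.05 (28%, against 26.9% of all genes). In wild type cells 1, Ndufb3, was called (4%, against 6.99% of all genes lower), with 4 at that level (16%, against 27.9%). In the paired fit of only the compared arrays 5 of 25 were called lower in wild type cells (20%, against 13.8% of all genes), Ndufa5, Ndufa9, Ndufa13, Ndufb3 and Ndufv3. Changes below 0 numbered 22 of 25 in CHOP-/- cells and 21 of 25 in wild type cells. In complex III, apart from Uqcrh, no gene was called in either genotype in the unblocked fit.

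In complex V 11 of 13 changes in CHOP-/- cells and 13 of 13 in wild type cells were below 0 at 8 h, yet limma called 0 in either genotype, with 3 at an unadjusted p under 0.05 in CHOP-/- cells (23.1%, against 26.9% of all genes) and 4 in wild type cells (30.8%, against 27.9%). In the paired fit of only the compared arrays 4 of 13 were called lower in wild type cells (30.8%, against 13.8% of all genes), Atp5a1, Atp5c1, Atp5j and Atp5mpl. Atp5j, coupling factor 6 in the stalk that holds the enzyme's head, gave 1013, 1038, 942 and 1175 in untreated CHOP-/- cells, 945, 1030.0, 665 and 719 at 4 h, and 732, 799, 889 and 932 at 8 h. Wild type cells gave 1097, 1119, 1253 and 1239 untreated, 704, 978, 906 and 1066 at 4 h, and 805, 865, 942 and 1012 at 8 h. Every treated wild type array lay below every untreated one, and the CHOP-/- 8 h arrays also lay at the low end, just below the lowest untreated value. The 8 h change was −0.31 in CHOP-/- cells (limma, adjusted p = 0.156) and −0.39 in wild type cells (adjusted p = 0.062). In the paired fit of only the compared arrays the wild type value was called (SE 0.0796, limma, adjusted p = 0.00625).

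Atp5k, subunit e in the membrane part of the enzyme, had larger but noisier values. It gave 58.5, 70.9, 59.2 and 81.7 in untreated CHOP-/- cells, 40.4, 55.6, 43.9 and 82.8 at 4 h, and 35.8, 25.0, 41.3 and 40.3 at 8 h. Wild type arrays gave 59.2, 77.7, 81.4 and 66.5 untreated, 41.4, 46.3, 72.0 and 46.7 at 4 h, and 58.9, 19.7, 40.4 and 41.9 at 8 h. All 8 h arrays were below all untreated arrays in both genotypes as deposited, but wild type arrays A at 8 h and untreated nearly met. The changes of −0.75 in CHOP-/- cells (adjusted p = 0.0884) and −0.76 in wild type cells (adjusted p = 0.074) were not called. Atp5g1, a gene for the c subunit of the rotor, had differences of 0.16 in CHOP-/- cells and −0.27 in wild type cells, with no call.

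**Figure D2:**
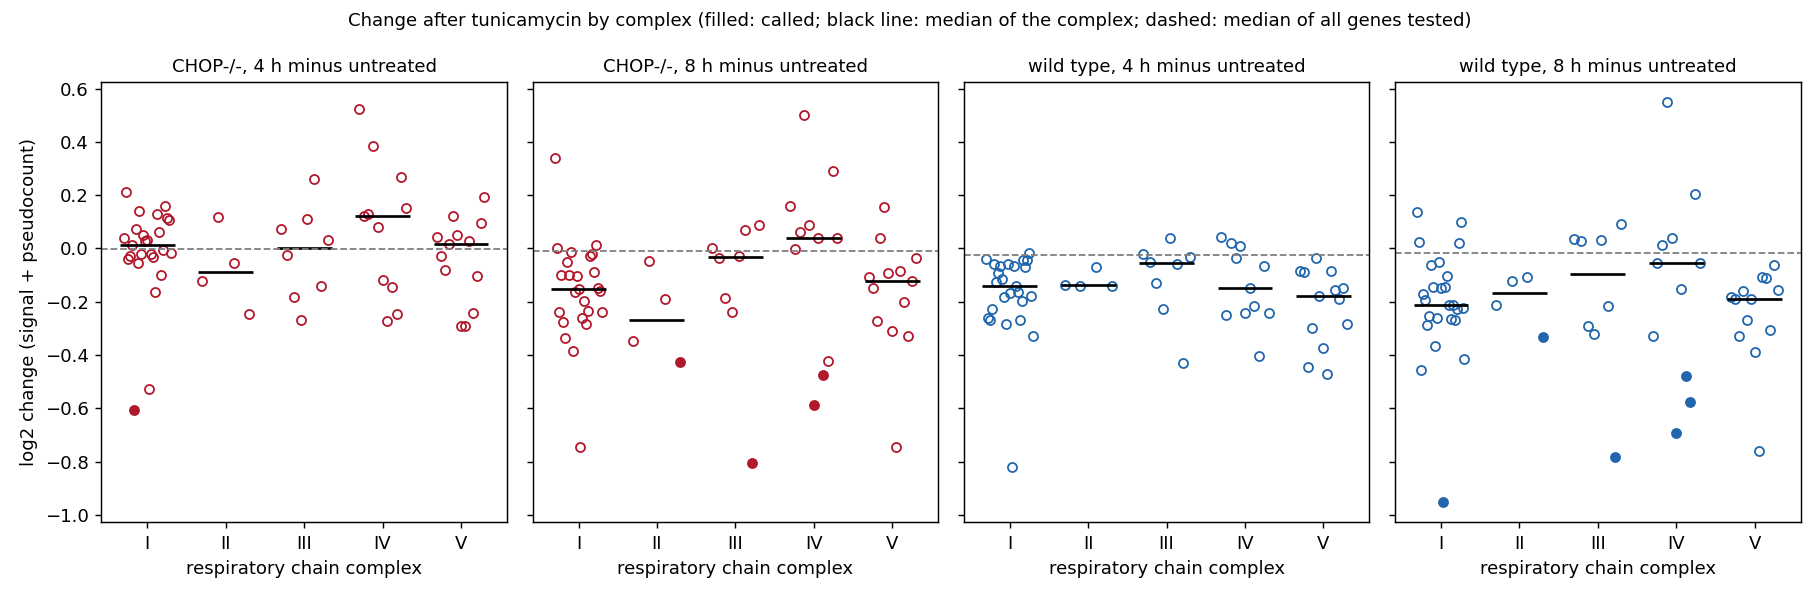
Change of each subunit gene on the log2(signal + pseudocount) scale in 4 comparisons with untreated cells, CHOP-/- in red and wild type in blue, grouped by complex; filled points are called genes, black lines the complex medians and dashed lines the median of all genes tested. At 8 h most points sit below 0 in both genotypes, and in the wild type panel at 4 h all 25 complex I and all 13 complex V points lie below 0.

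The responses at 8 h ran alongside each other in the genotypes, which share no arrays in these comparisons. Across the 62 genes Pearson's r between the CHOP-/- and wild type changes was 0.855 and Spearman's rho 0.71, where over all 5662 genes they were 0.786 and 0.708. Genes are not independent replicates, and these values are descriptions. Of the 62, 43 were lower in both genotypes and 10 higher in both. In the test of the response itself, CHOP-/- change minus wild type change, limma called 0 of 62 at 8 h, with 0 at an unadjusted p under 0.05, where 0.0353% of all genes were called and 4.63% had such a p. The 95% interval of the response difference lay within 2-fold for 58 of 62 genes (93.5%).

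**Figure D3:**
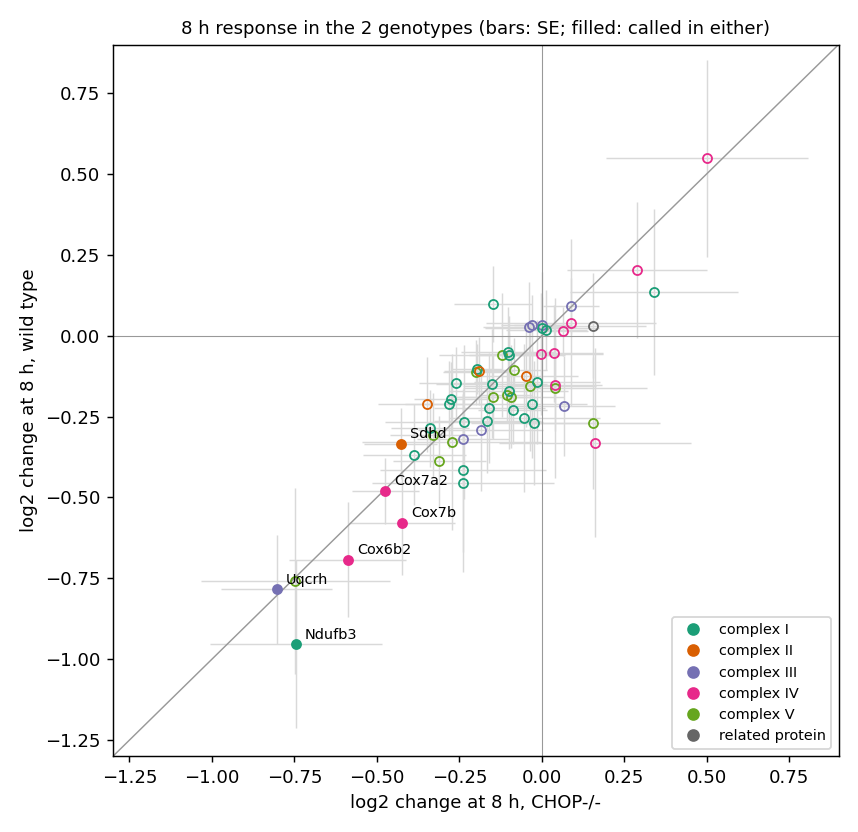
Log2 change at 8 h relative to untreated cells in CHOP-/- fibroblasts (x axis) and wild type fibroblasts (y axis) for the 62 subunit genes, coloured by complex, with SE bars; filled points are called in at least 1 genotype and the diagonal marks equal change. The called genes lie along the diagonal at the lower left, and 43 of 62 genes are below 0 on both axes.

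Few subunit genes were called at 4 h. Ndufa5 alone was called lower in CHOP-/- cells (1.61%; 0.548% of all genes) and 0 of 62 higher (0.971% of all genes), 29 of 62 changes were below 0 and the median was 0.02. It was also the 1 gene whose CHOP-/- arrays at 4 h all lay below the untreated ones (2.79% of all genes), with 0 the other way (3.11% of all genes). For wild type cells limma called 0 of 62, with 5 at an unadjusted p under 0.05 (8.06%, against 11.2% of all genes), while 0.336% of all genes were called lower and 1.8% higher. Of the wild type changes 57 of 62 (91.9%) were below 0, where 55.5% of all genes were, and the median was −0.14. Wild type groups failed to overlap at 4 h for 1 gene, Atp5j, lower (2.38% of all genes), and for 0 higher (4.57% of all genes). The response difference at 4 h had a median of 0.14, was above 0 for 54 of 62 genes, and held 0 calls by limma, with Ndufa5 alone at an unadjusted p under 0.05 (0% of all genes were called and 3.99% had such a p).

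The wild type shift at 4 h depended on single arrays, most on 4 h array A. Per array, the median over the 62 genes of the log2 value minus its mean over 24 arrays was −0.28 on wild type 4 h A, the lowest of all 24, and 0.05, 0.14 and 0.02 on wild type 4 h B, C and D. Array A also had the highest signal median of all arrays before normalization and array C the lowest, and the part of this in the shift was not tested. Without array A the wild type median change at 4 h was −0.07 and the median response difference 0.06, and without both arrays A and C they were −0.10 and 0.11, an alternative chosen after seeing the data. On the reference side, wild type untreated C had the highest value of all 24 arrays, at 0.26. Without that array the wild type median change was −0.11 at 4 h and −0.14 at 8 h, and the median difference between untreated genotypes was −0.10. The CHOP-/- median at 4 h lay between −0.06 and 0.10 as single arrays were left out. In a fit of only the compared arrays with the letter as a replicate block 1 gene, Ndufb3, was called lower in wild type cells at 4 h (−0.82, SE 0.149, limma, adjusted p = 0.0227), where 0.901% of all genes were called lower and 2.51% higher. In the fits over all 24 arrays Ndufb3 was not called at 4 h, either without a block (limma, adjusted p = 0.125) or with it.

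The same measure over all groups was 0.02, 0.02 and −0.12 on average in CHOP-/- cells untreated, at 4 h and at 8 h, and 0.14, −0.02 and −0.04 in wild type cells. The spread within groups was 0.136 (pooled SD). The CHOP-/- groups overlapped throughout, and the 8 h arrays of wild type cells all lay below their untreated arrays. Within CHOP-/- untreated cells array D was high (0.22) and arrays A and C low (−0.07 and −0.11), and at 4 h array C was high (0.23) and array A low (−0.19).

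**Figure D4:**
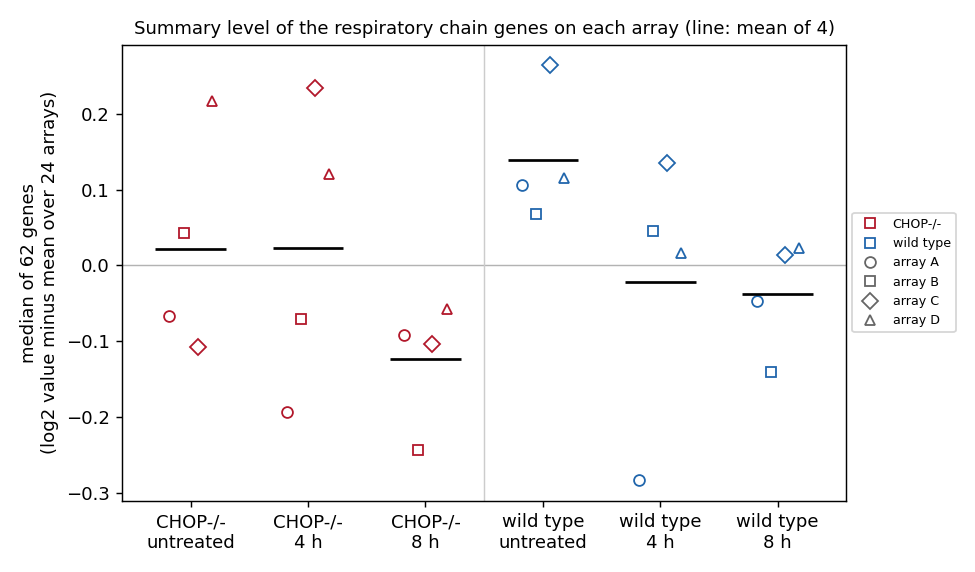
Summary level of the list on each array, as the median over 62 genes of the log2 value minus the gene's mean over 24 arrays, with CHOP-/- groups left of wild type groups, shapes for array letters and lines for the mean of 4. Wild type 4 h A is lowest at −0.28, and the 4 CHOP-/- arrays at 8 h lie between −0.24 and −0.06.

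**Figure D5:**
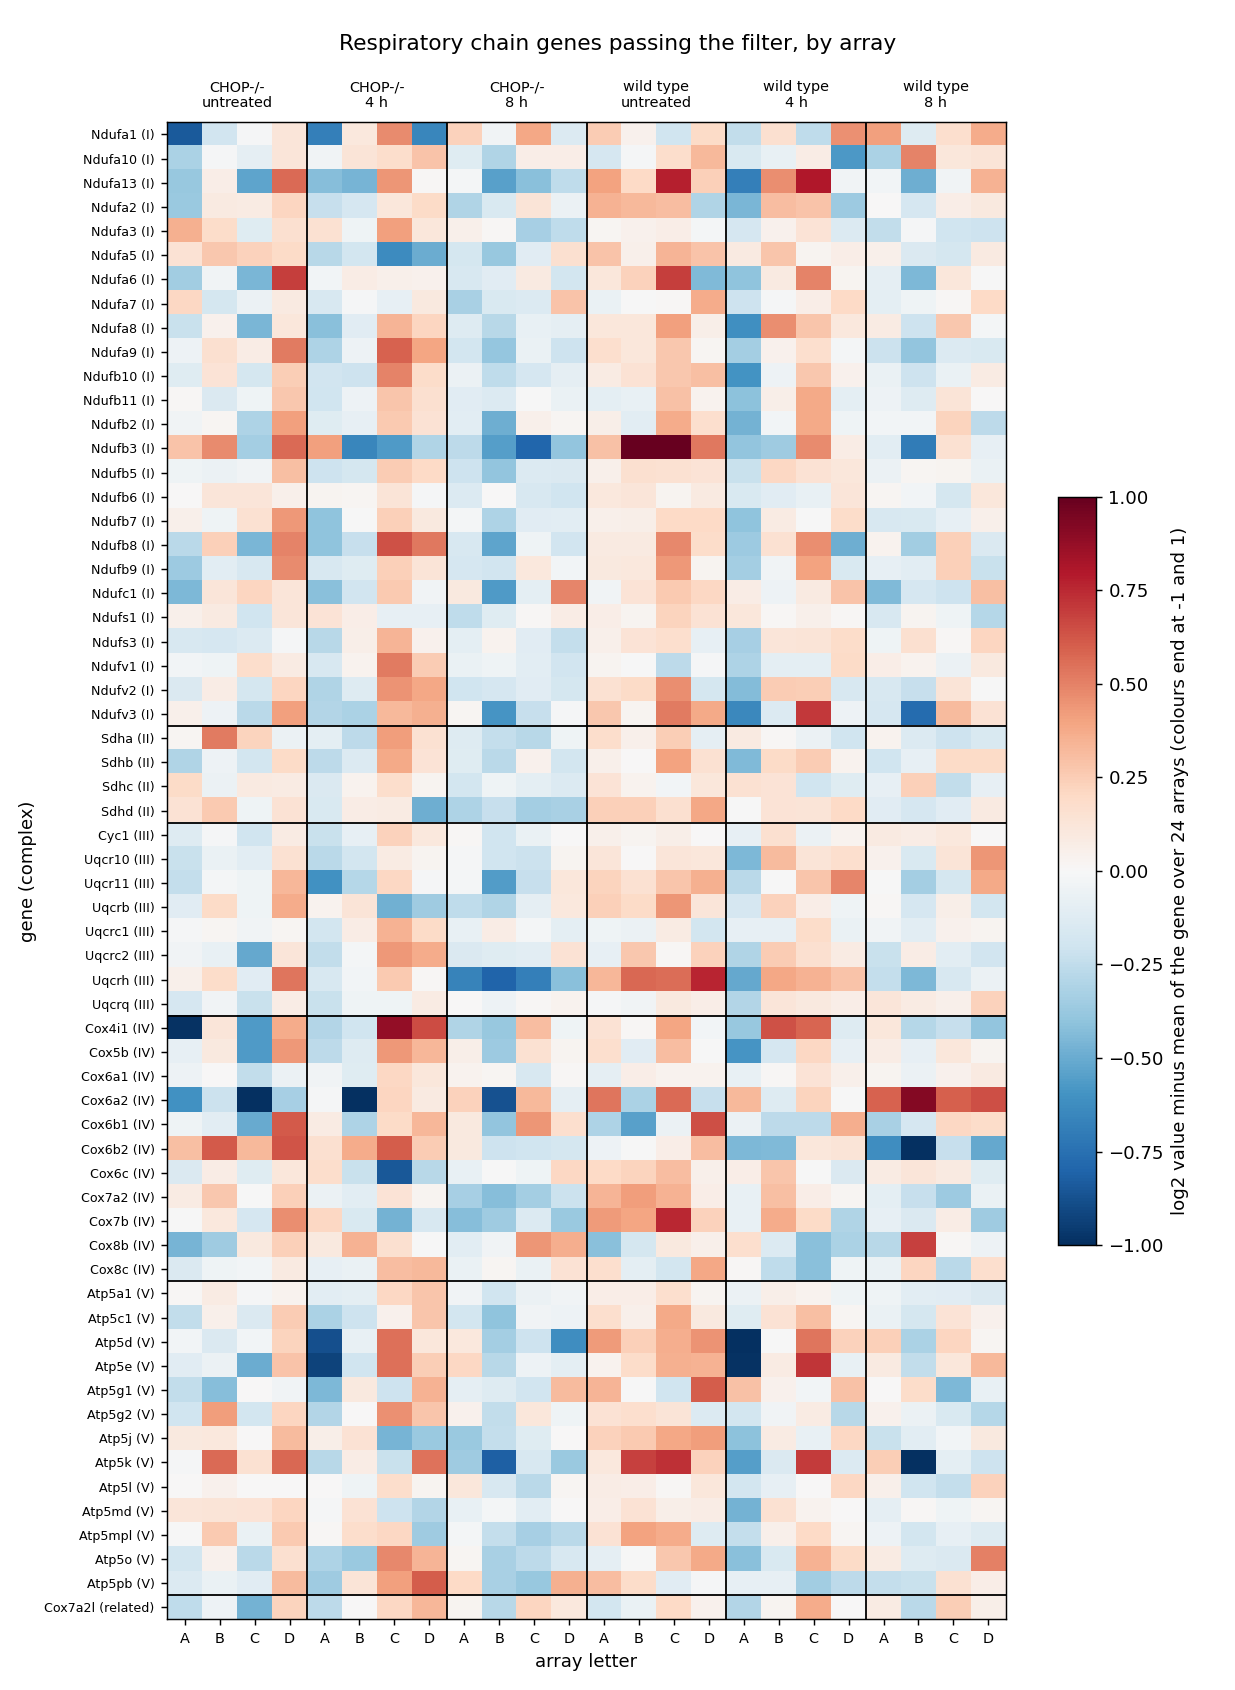
Log2 value of each of the 62 tested subunit genes minus its mean over 24 arrays, genes by complex in rows and arrays by group in columns, with colours ending at −1 and 1. Many genes of an array shade together, as in the blue column of wild type 4 h A and the red columns of CHOP-/- untreated D and CHOP-/- 4 h C, while Uqcrh is blue on all 8 h arrays of both genotypes.

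Ndufa5, an accessory subunit in the arm of complex I that reaches into the matrix, was the gene with a call at 4 h. Its CHOP-/- signal was 927, 1037, 992 and 960 untreated, 693, 749.7, 525 and 586 at 4 h, and 747, 643, 786 and 927 at 8 h (arrays A to D). Its wild type signal was 1026, 860 (array B), 1081 and 1024 untreated, 879, 1001, 869 and 876 at 4 h, and 860 (array A), 750.0, 761 and 892 at 8 h. All CHOP-/- arrays at 4 h lay below all untreated CHOP-/- arrays and below all wild type arrays at 4 h, and the wild type groups overlapped. The change at 4 h was −0.60 (SE 0.119) in CHOP-/- cells (limma, adjusted p = 0.0088) and −0.13 in wild type cells (adjusted p = 0.83), and at 8 h it was −0.34 in CHOP-/- cells (adjusted p = 0.0602) and −0.29 in wild type cells (adjusted p = 0.11). The CHOP-/- call at 4 h was lost with arrays centred on their medians (adjusted p = 0.0592), when only the arrays compared entered the fit (0.132) and when these were also blocked by letter (0.241).

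Relative to wild type cells at 4 h, Ndufa5 was −0.51 in CHOP-/- cells (SE 0.119, limma, adjusted p = 0.0192), the only subunit gene called between genotypes at that time (1.61%; 1.29% of all genes lower, 1.15% higher). The call was lost without wild type 4 h array B (adjusted p = 0.0825), CHOP-/- array C (0.0853) or CHOP-/- array D (0.0679), and 2 genes were called without CHOP-/- array A. It was also lost when only the arrays compared entered the fit (adjusted p = 0.151). The test of the response difference gave −0.48 (95% interval −0.83 to −0.13, adjusted p = 0.997, limma over all genes). Groups at 4 h did not overlap for Ndufa5, lower in CHOP-/- cells (3.66% of all genes in that direction), and, after normalization only, for Cox6b2, higher in CHOP-/- cells (4.19% of all genes).

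Between untreated genotypes limma called 0 of 62 subunit genes, with 4 at an unadjusted p under 0.05 (6.45%, against 8.94% of all genes), while 0.371% of all genes were called lower in CHOP-/- cells and 0.618% higher. Of the 62 differences 52 (83.9%) were below 0, lower in CHOP-/- cells, where 48.8% of all genes were, and the median was −0.14. It was −0.08 without CHOP-/- array C and −0.22 without CHOP-/- array D. Besides Uqcrh and Cox6b2, the genes with such a p were Cox7b at −0.35 (limma, adjusted p = 0.515) and Cox6a2 at −0.75 (adjusted p = 0.418). Cox6a2 passed the filter only through its wild type arrays, so its difference is a description. After normalization the untreated arrays of the genotypes failed to overlap for 1 gene, Atp5d, the delta subunit of complex V (1.61%; 2.35% of all genes), lower in CHOP-/- cells, and for 0 in the other direction (2.97% of all genes). As deposited they overlapped for Atp5d, with CHOP-/- array D at 410.9 and wild type array B at 398.7.

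At 8 h limma also called 0 of 62 between genotypes, with 3 at an unadjusted p under 0.05 (4.84%, against 16.8% of all genes), while 1.91% of all genes were called lower and 2.28% higher. The median was −0.09, with 48 of 62 below 0, and it was −0.05 without CHOP-/- array B. Arrays did not overlap for Uqcrq, Ndufb5, Sdhd and Cox6a2, lower in CHOP-/- cells (6.45%; 5.93% of all genes), and for Cox6b2, higher in CHOP-/- cells (1.61%; 5.65% of all genes). For Uqcrq this held after normalization only, and Cox6a2 passed the filter only through its wild type arrays. At 4 h the median was 0.02, with 26 of 62 below 0, and centring on array medians turned it to −0.01. The median over all genes turned likewise, from 0.01 to −0.01.

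Several complex IV genes have a form found in heart and skeletal muscle, and these were set beside the common forms. Each form has its own probe set, so the signals do not rank the forms by level. The probe sets of Cox6a1 and Cox4i1, like that of Cox6b2, are of a type that can also bind related sequences. Cox6a1, the common form of subunit VIa, ran between 2875 and 4541 on all 24 arrays, with differences of 0.06 in CHOP-/- cells and 0.01 in wild type cells at 8 h. Cox6a2, its muscle form, gave 22.1, 23.3, 11.0 and 25.9 in untreated CHOP-/- cells, 30.9, 11.6, 39.6 and 39.5 at 4 h, and 35.5, 13.7, 37.5 and 30.7 at 8 h. In wild type cells it gave 52.2, 21.9, 44.2 and 31.1 untreated, 50.9, 29.3, 28.9 and 32.4 at 4 h, and 49.0, 67.2, 44.2 and 51.2 at 8 h. All CHOP-/- arrays lay below all wild type arrays at 8 h, with a difference of −0.79 that was not called (SE 0.305, adjusted p = 0.162), and CHOP-/- array B was the lowest array at 4 h and at 8 h.

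Cox7a1, the muscle form of subunit VIIa, did not exceed 7.8 on any array, under the filter of 28.6. Cox8a, the common form of subunit VIII, did not exceed 12.3 with its probe set, and Cox8b, the muscle form, lay between 29.5 and 91.8 with no call. Cox4i1, the common form of subunit IV, had differences of 0.16 in CHOP-/- cells and −0.33 in wild type cells at 8 h, with no call and signals between 73.3 and 238 over the arrays. Of 22 markers of skeletal and cardiac muscle on the array, 11 passed the filter and 9 or 10 lay under it on every array of a group. Acta1 (688 to 3410) and Actc1 (997 to 2088) were the high ones, and the list summed to between 2231 and 4535 in untreated CHOP-/- cells, 3664 and 6149 at 4 h, and 3009 and 3988 at 8 h, against 4252 and 5802, 3711 and 5220, and 2722 and 4523 in wild type cells. Their part in the Cox6a2 values was not tested.

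Other genes of the pathway were counted from lists drawn up by function. Of 21 assembly factors and electron carriers tested, 1 was called higher at 8 h in CHOP-/- cells and 3 in wild type cells, with 0 lower in either. These were 4.76% of the list in CHOP-/- cells, where 7.35% of all genes were called higher, and 14.3% in wild type cells, where 9.63% were. Ndufaf4, which helps assemble complex I, gave 122 ± 31 at 8 h and 72.4 ± 27.7 untreated in CHOP-/- cells (log2 change 0.79, SE 0.263, limma, adjusted p = 0.0464), and 142 ± 20.1 and 67.2 ± 12 in wild type cells (1.02, adjusted p = 0.00878; SD, n = 4 each). Foxred1, another complex I assembly factor, rose by 0.47 (adjusted p = 0.00438) and Coq9, of ubiquinone synthesis, by 0.51 (adjusted p = 0.0267) in wild type cells. The medians of this list were 0.02 in CHOP-/- cells and −0.01 in wild type cells.

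Of 15 genes of the citric acid cycle and pyruvate dehydrogenase, Dld, the dihydrolipoamide dehydrogenase shared by the 2-oxo acid dehydrogenases, rose in CHOP-/- cells (0.50, SE 0.154, adjusted p = 0.0314). In wild type cells limma called 0 of them, with 2 at an unadjusted p under 0.05 (13.3%, against 27.9% of all genes). Of 9 carriers and pores, Slc25a11, the exchanger of malate for 2-oxoglutarate, fell in CHOP-/- cells (−0.53, SE 0.146, adjusted p = 0.016). In wild type cells limma called 0 of these, again with 2 at that level (22.2%, against 27.9% of all genes). Of 10 regulators of mitochondrial genes, Yy1, a transcription factor, rose by 0.48 in CHOP-/- cells (adjusted p = 0.0333) and by 0.54 in wild type cells (adjusted p = 0.0165), and Polg2, the accessory subunit of the mitochondrial DNA polymerase, rose by 0.61 in wild type cells (adjusted p = 0.0393). Regulators were above 0 for 9 of 10 in each genotype, with medians of 0.26 in CHOP-/- cells and 0.32 in wild type cells, opposite in sign to the subunit genes. As shares of their lists, Dld was 6.67% and Yy1 10% in CHOP-/- cells, where 7.35% of all genes were called higher, and Slc25a11 was 11.1%, where 6.59% were called lower. Yy1 and Polg2 were 20% of the regulators in wild type cells, where 9.63% of all genes were called higher. None of these lists held a call at 4 h or between genotypes.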

How the data were processed

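Members and gene lists were chosen with earlier results of these data known. The deposited values were probe set signals (intensity, linear, 1 value per probe set and array). Neither the labels nor the file header used here state the authors' array software or scaling. The table held 12488 probe sets, 66 of them controls. Of the rest, 10833 had 1 gene in the platform annotation, standing for 8251 genes. Of 9 probe sets with several genes that matched the symbol rule, 5 symbols occurred only there and were left out. No 2 arrays were identical (r 0.906 to 0.98).

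A pseudocount of 5.7, set at the 20th percentile of the signals, was added and log2 taken, so changes of low genes are understated. As 2 array medians lay more than 0.2 from the mean, values were quantile normalized. Genes with a mean log2 value over 5.10 (signal 28.6, 40th percentile) were tested, 5662 in all. limma 3.58.1 in R 4.3.3 fitted 6 group means over 24 arrays (18 residual degrees of freedom) with an intensity trend. Tests were two-sided, and the fit was tested on simulated data with known changes. Named were genes called in any of the 9 comparisons, the smallest p per complex at 8 h and between untreated genotypes, all Sdh genes, Uqcrh, Cyc1, Cox7a2, Cox4i1 and the muscle isoform pairs of complex IV. Cox4i2 was not analysed here.

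The labels give the letters but do not state that they mark pairs. Pairing by letter was therefore judged from these data, on deviations from group means. The lowest and highest correlation of same-lettered arrays were 0.314 and 0.553 between 4 h and untreated wild type cells, 0.406 and 0.619 between 8 h and untreated wild type cells, and 0.289 and 0.546 between the genotypes at 8 h, and these were treated as paired. In the other comparisons some were under 0.1. Promoters were read with Python 3.11.15 and pandas 2.3.3 and figures drawn with matplotlib 3.10.9.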

Additional observations from a re-analysis of the deposited data

Results flagged for a closer look

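Among 120 groups of 4 arrays of the named genes, 5 held an array far from the other 3, and chance alone gives such a gap in about 1 in 20 groups. Uqcrh on wild type 4 h A was 915.2, with the others between 1617.2 and 1805.1. Cox6b2 on CHOP-/- 8 h A was 116.5, with the others between 93.7 and 102.2. Cox6a1 was 3270.1 on wild type untreated A (others 3813.5 to 4386.2) and 3114.7 on CHOP-/- 8 h C (others 3526.1 to 3785.4). Cox6a2 on CHOP-/- 4 h B was 11.6, with the others between 30.9 and 39.6.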

How the results depend on the processing

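Calls of subunit genes were recounted under 23 alternatives for each comparison within a genotype or at one time, and 31 for each response difference. Centring each array on its median left 0 calls in CHOP-/- cells at 4 h, in CHOP-/- cells at 8 h and between genotypes at 4 h, and 2 in wild type cells at 8 h. Array weights gave 8 calls in CHOP-/- cells at 8 h and 2 between genotypes at 8 h. With only the compared arrays there were 0 in CHOP-/- cells at 4 h and 0 between genotypes at 4 h. With those arrays and the letter as a replicate block, chosen after seeing the data, there were 0 in CHOP-/- cells at 4 h, 1 in wild type cells at 4 h, 15 in wild type cells at 8 h, 0 between genotypes at 4 h and 1 between genotypes at 8 h. A replicate block over all 24 arrays gave 7 in wild type cells at 8 h and the reported count in each other comparison. Leaving out single arrays gave 3 to 7 in CHOP-/- cells at 8 h (7 without untreated array C), 4 to 6 in wild type cells at 8 h and 0 to 2 between genotypes at 4 h. Without the arrays of outlying median, also chosen after seeing the data, the last count was 0. Between untreated genotypes and for both response differences every alternative gave 0. Except for the paired fits described above, no share of all genes is set beside these counts. They therefore do not show how the subunit genes stood against all genes under each alternative. Uqcrh at 8 h kept its call in CHOP-/- cells in all but median centring (adjusted p = 0.0568), and in wild type cells in all 23 alternatives. No change turned its sign among genes called. The cause of these shifts was not tested, and 4 arrays per group and probe set signal, low for the 7 genes not tested, limit what could be called.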
